A study of Mus musculus with 12 samples.

Results

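The genes through which astrocytes take up transmitters and move water and ions were examined in cultured primary mouse oligodendrocytes (OLs) after siRNA against Egr2. The 9 genes were Slc1a2, Slc1a3, Glul, Slc6a11, Slc7a10, Aqp4, Atp1b2, Slc4a4 and Aldh1l1, chosen by name with earlier results of these data known. They were found as 9 of 56860 named genes in a table of RNA-seq counts. The cells were O4+ immature OLs isolated from the cortex of newborn C57BL/6J mice, although the labels name the medial prefrontal cortex as the source. They were expanded with PDGF-AA and moved to a maturation medium with insulin, triiodothyronine and ciliary neurotrophic factor. The differentiated cells received siEgr2 or a scrambled siRNA (siNC), and RNA was collected 48 h later from 6 libraries per group. The methods call the Egr2 reagent an siRNA in one place and an interference plasmid in another. Both groups had the same genotype, medium and time, so the comparison asks how these genes differed after the Egr2 reagent. Nothing in the labels says that the libraries came from separate cultures, so p-values measure the spread between these samples, which may be technical.

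Astrocytes clear glutamate from the synapse through the sodium-coupled transporters GLT-1 (Slc1a2) and GLAST (Slc1a3), and glutamine synthetase (Glul) turns it into glutamine, which is returned to neurons. The uptake is paid for by the sodium pump, whose beta-2 subunit is Atp1b2, and is accompanied by bicarbonate transport through NBCe1 (Slc4a4) and by water flow through aquaporin-4 (Aqp4). GABA is taken up by GAT3 (Slc6a11), neutral amino acids including D-serine are exchanged by Asc-1 (Slc7a10), and the folate enzyme Aldh1l1 is a widely used astrocyte marker. Some of these genes are also expressed outside astrocytes, for example Glul in OLs.

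The libraries held 28682946 to 39383014 counts in siNC and 8034251 to 16683677 in siEgr2. The 18S ribosomal RNA gene Rn18s-rs5 took 0.142% to 1.05% of the counts in siNC and 10.5% to 16.5% in siEgr2, so depth and ribosomal RNA share differed between the groups without overlap and cannot be told apart from the treatment. Within siEgr2, libraries 4 and 6 had the highest 18S share. No library was a copy of another, but siEgr2 libraries 1 and 2, 3 and 5, and 4 and 6 were closer to each other (chi-square per gene of 7.56 to 8.77) than any other siEgr2 pair (13.3 or more). In siNC, libraries 1 and 5 (13.4) and 3 and 6 (14.2) were closer than any other pair (21.8 or more). Egr2 itself was 3.89 CPM (counts scaled to the library size after TMM scaling) at its lowest, 5.19 at the median and 7.06 at its highest in siNC, against 2.22, 3.93 and 4.86 in siEgr2. The groups overlapped, and the log2 fold change of -0.51 (SE 0.21) did not pass the quasi-likelihood test of edgeR after Benjamini-Hochberg adjustment (adjusted p = 0.0981). Markers of the labelled cell type were abundant, with 13 OL genes such as Mbp and Mag summing to 8316 to 9487 CPM in siNC and 7811 to 8160 CPM in siEgr2. Astrocyte markers were abundant as well: 22 genes other than the 9 summed to 9230 to 10063 CPM in siNC and 6213 to 6984 CPM in siEgr2, and Gfap alone averaged 4777 ± 205 CPM (SD, n = 6) in siNC.

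In siNC, the levels per kilobase of exon spanned 3 orders of size. Atp1b2 was the highest at 414 ± 4.11 CPM per kilobase (SD, n = 6), followed by Glul at 227 ± 9.92, Aqp4 at 152 ± 7.47 and Slc1a3 at 116 ± 4.27 CPM per kilobase. Slc1a3, the glutamate transporter typical of immature astrocytes, thus stood above Slc1a2, the main transporter of the mature forebrain, at 56.8 ± 2.74 CPM per kilobase. Aldh1l1 (48.4 ± 4.68), Slc4a4 (28.4 ± 1.12) and Slc6a11 (21.2 ± 1.89 CPM per kilobase) came next. Slc7a10 was near the limit of detection at 0.379 ± 0.0865 CPM per kilobase. The siNC ranges of neighbors in this order did not overlap. The order of the 9 genes was the same in siEgr2, where the levels per kilobase of exon ran from 323 ± 9.57 CPM for Atp1b2 to 0.155 ± 0.156 CPM for Slc7a10. The 9 genes together took 0.595% to 0.620% of all counts in siNC and 0.342% to 0.364% in siEgr2.

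**Figure D1:**
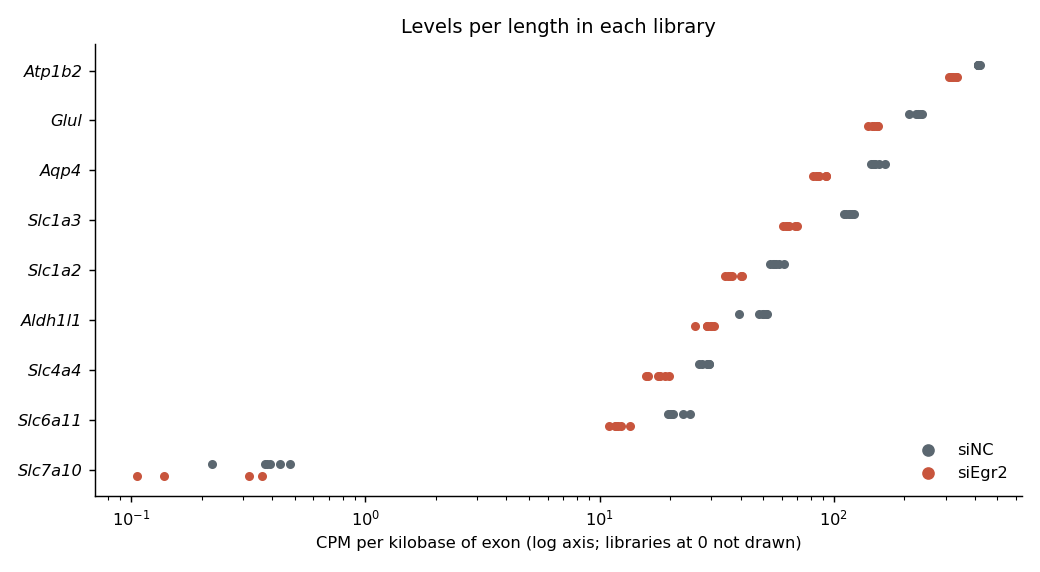
Level of each gene in CPM per kilobase of exon (log axis) in each of the 12 libraries, with siNC in gray and siEgr2 in red. The order is the same in both groups, Slc7a10 lies far below the others, and the 2 siEgr2 libraries without an Slc7a10 count are not drawn.

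Of the 9 genes, 7 fell after siEgr2 and none rose. The genes that fell were Slc1a3, Slc6a11, Aqp4, Aldh1l1, Slc4a4, Slc1a2 and Glul, with log2 fold changes of -0.85 to -0.61, and Atp1b2 was lower by less than the fold threshold. A change was called where the adjusted p was under 0.05 and the log2 fold change exceeded 0.5 in size. By that rule 844 of the 16600 genes tested fell (5.08%) and 7.72% were called in either direction. Of all called genes 65.9% fell, and with scaling by library size alone 88.0% did. By adjusted p alone 8 of the 9 genes were lower, against 11.3% of all tested genes (19.9% in either direction). The groups did not overlap for 8 of the 9 genes, where 7.0% of all genes were lower in siEgr2 without overlap. The median log2 fold change was -0.74 over the 9 genes and 0.0046 over all genes. Among the 2797 genes at least as abundant as Slc6a11, 99 fell (3.54%), and their median log2 fold change was -0.012. The 9 genes were chosen with earlier results of these data known, so their counts beside these shares are a description only. In bulk RNA, fewer cells of a type and less RNA per cell cannot be told apart. All 7 falls remained past both thresholds in every fit of the counts with another scaling, filter, test or set of libraries.

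**Figure D2:**
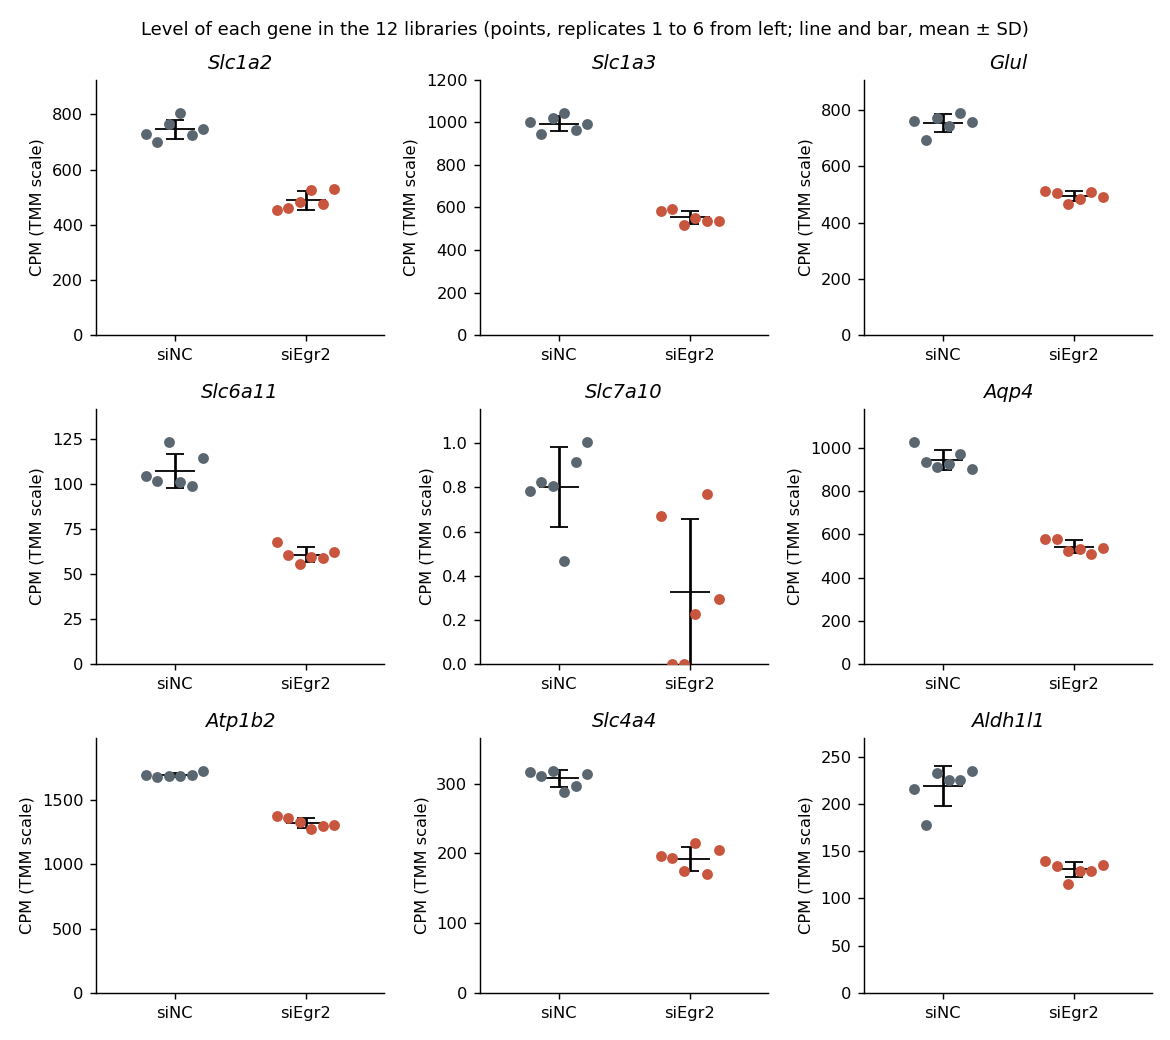
Level of each gene in CPM in each library (points, replicates 1 to 6 from left to right within a group), with the mean and SD of the 6 libraries as a line and bar. The siEgr2 points lie below all siNC points for every gene except Slc7a10, whose groups overlap.

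Both glutamate transporters fell. Slc1a3, on chromosome 15 (8634124 to 8710764, GRCm38, minus strand), had 945 CPM at its lowest, 997 at the median and 1044 at its highest in siNC, against 519, 543 and 593 CPM in siEgr2. Every siEgr2 library was below every siNC library, and the siEgr2 mean was 55.6% of the siNC mean (log2 fold change -0.85, SE 0.037, adjusted p = 4.66e-10 by edgeR's quasi-likelihood test). Slc1a2, on chromosome 2 (102658659 to 102790784, plus strand), had 702, 739 and 805 CPM in siNC and 453, 478 and 531 CPM in siEgr2. The groups were again apart, at 65.5% of the siNC mean (log2 fold change -0.61, SE 0.045, adjusted p = 1.31e-07). Within siEgr2, Slc1a2 was highest in libraries 4 and 6, at 527 and 531 CPM, where the other 4 libraries lay between 453 and 481 CPM. Those 2 libraries also had the highest 18S share and the highest Egr2 level (4.86 and 4.68 CPM), and the part of either in the Slc1a2 level was not tested. Without them, the log2 fold change of Slc1a2 was -0.68, and 7 of the 9 genes fell.

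Glutamine synthetase fell to nearly the same share of its siNC level as Slc1a2. Glul, on chromosome 1 (153899944 to 153909723, plus strand), had 694 CPM at its lowest, 760 at the median and 790 at its highest in siNC and 466, 500 and 512 CPM in siEgr2. The siEgr2 mean was 65.7% of the siNC mean, with no overlap (log2 fold change -0.61, SE 0.036, adjusted p = 1.04e-08). Its spread was small in siEgr2, where the mean was 495 ± 18.2 CPM (SD, n = 6). In GENCODE M21, Glul shares 93 exon bases with the microRNA gene Mir8114 on the same strand. Mir8114 held 4246 counts over all libraries, against 22728 to 31651 for Glul in a single siNC library.

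The GABA transporter Slc6a11 fell, and the siEgr2 mean was close to the same share of siNC as for Slc1a3. On chromosome 6 (114131241 to 114249952, plus strand), it had 98.8 CPM at its lowest, 103 at the median and 123 at its highest in siNC, against 55.5, 60.0 and 67.9 CPM in siEgr2. The groups did not overlap, and the siEgr2 mean was 56.7% of the siNC mean (log2 fold change -0.82, SE 0.063, adjusted p = 2.11e-07). Slc7a10, on chromosome 7 (35186385 to 35201114, plus strand), was rare and was not called in the main fit. It had 16 to 42 counts per library in siNC and 0 to 10 in siEgr2, with no count in libraries 2 and 3. Its level was 0.468 CPM at the lowest, 0.815 at the median and 1.01 at the highest in siNC, and 0, 0.258 and 0.768 CPM in siEgr2. The highest siEgr2 library lay within the siNC range. The log2 fold change of -1.38 had an SE of 0.61 and a 95% interval of -2.57 to -0.19, and it did not pass (adjusted p = 0.128). It passed with limma-voom (-2.02, adjusted p = 0.0479) and when the closest siEgr2 libraries were summed into 3 (-1.45, adjusted p = 0.0382), but not when the closest siNC libraries were summed as well (-1.39, adjusted p = 0.0997). Slc7a10 also shares 377 exon bases with Lrp3 on the opposite strand, which held 20050 counts over all libraries, and whether counting used the strand is not given in the sources used here.

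The reagent targets a zinc finger transcription factor that binds GC-rich DNA, so the available promoter windows of the 9 genes were searched for its motif. RefSeq promoter windows (GRCm38.p6, 250 bases before to 50 bases after the start) matched 7 of the 9 genes with 8 windows, since Slc4a4 has 2 of them. Aqp4 and Atp1b2 had no window and were not searched. The full motif GCGTGGGCG, on either strand, was in none of the 8 windows and in 0.612% of all 32851 windows. Its core GTGGGCG, which lies within the full motif, was in 2 of the 8 windows and in 7.97% of all windows. Slc6a11 held it 225 bases before the start and Slc7a10 at 9 bases before the start. The 30 bases around each match are shown because they are the only matches to the core among the 7 genes with a window, and capitals mark the core:
Slc6a11 (chr6:114131005-114131034, plus strand): gagttagccagGTGGGCGcaaggtcaaggt
Slc7a10 (chr7:35186365-35186394, plus strand): tgcgcccgcctGTGGGCGctgtcccgggct
Among the 7 genes with a window, Slc6a11 fell and Slc7a10 was not called, while Slc1a3, Slc1a2, Glul, Slc4a4 and Aldh1l1 fell without a match. For Slc1a2 (102706188 to 102706487) and Aldh1l1 (90550543 to 90550842) the window lies inside the gene. The gene starts given here for them, 102658659 and 90486427, were not searched. The CCAAT letters were in 4 of the 8 windows (37.4% of all windows), those of Glul, Slc4a4, Aldh1l1 and Slc1a3, and TATAAA was only in that of Slc1a3 (13.6% of all windows). The GC box GGGCGG was in 6 of the 8 windows, against 35.7% of all windows. The windows varied in GC content from 45.3% for Slc1a3 and 45.7% for Slc1a2 to 72.3% for Slc6a11, where the median of all windows was 52.7%, and the first Slc4a4 window reached 80%. A match describes the letters in these windows and says nothing about binding.

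The water channel fell about as far as Slc1a3. Aqp4, on chromosome 18 (15389496 to 15410982, minus strand), had 902 CPM at its lowest, 931 at the median and 1028 at its highest in siNC, against 511, 536 and 579 CPM in siEgr2. No libraries overlapped, and the siEgr2 mean was 57.5% of the siNC mean (log2 fold change -0.80, SE 0.040, adjusted p = 1.95e-09). Slc4a4, on chromosome 5 (88886818 to 89239653, plus strand), had 288, 313 and 318 CPM in siNC and 171, 194 and 214 CPM in siEgr2. It fell to 62.5% of the siNC mean without overlap (log2 fold change -0.68, SE 0.053, adjusted p = 2.34e-07). Like Slc1a2, Slc4a4 was highest in siEgr2 libraries 4 and 6, at 214 and 205 CPM, and without them its log2 fold change was -0.75.

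Atp1b2, the most abundant of the 9 genes per kilobase, had the smallest log2 fold change of them. On chromosome 11 (69599736 to 69605942, minus strand), it had 1678 CPM at its lowest, 1688 at the median and 1725 at its highest in siNC, against 1271, 1313 and 1373 CPM in siEgr2. The siNC libraries differed by very little (CV 0.991%), and all siEgr2 libraries lay below them. The mean was 78.0% of the siNC mean, and the log2 fold change of -0.36 (SE 0.025, adjusted p = 7.84e-08) passed the adjusted p and not the fold threshold. When the counts were scaled by library size alone, its log2 fold change was -0.54 and passed both.

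The folate enzyme Aldh1l1, on chromosome 6 (90486427 to 90600203, plus strand), fell to 59.7% of its siNC mean. It had 178 CPM at its lowest, 225 at the median and 235 at its highest in siNC, and 116, 132 and 139 CPM in siEgr2. The lowest siNC value was that of library 2, the other 5 lay between 216 and 235 CPM, and all siEgr2 libraries were lower. The log2 fold change was -0.74 (SE 0.064, adjusted p = 6.85e-07), and leaving out any single library kept it between -0.80 and -0.71.

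**Figure D3:**
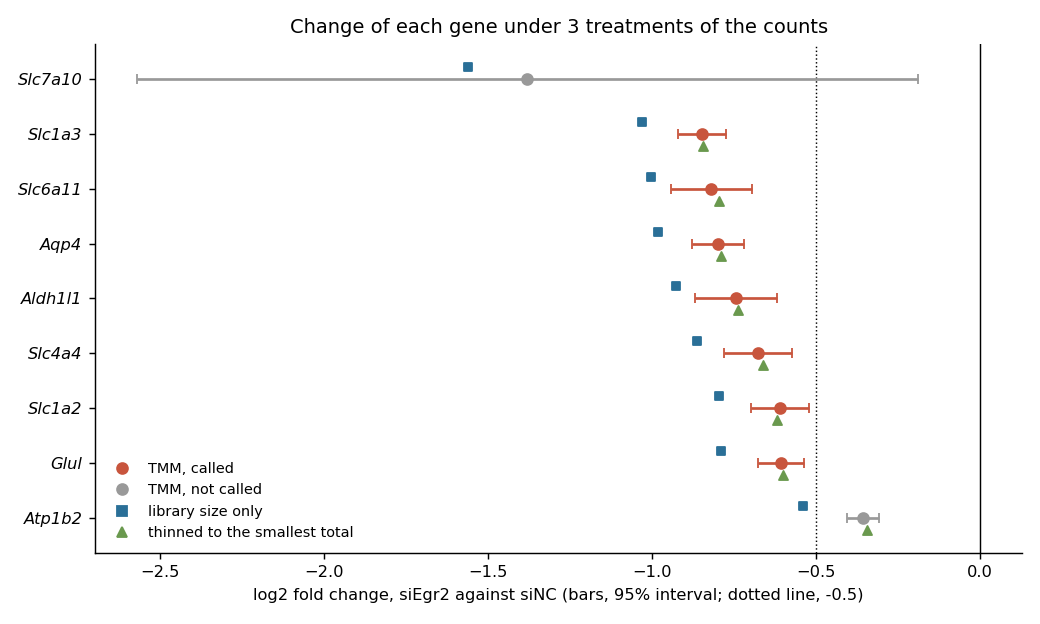
Log2 fold change of each gene, siEgr2 against siNC, with TMM scaling (circles with 95% intervals, red where called), with library size only (squares) and with all libraries thinned to the smallest total (triangles, absent for Slc7a10, which was not tested there). The dotted line marks -0.5, and scaling by library size moves every gene further from 0, Atp1b2 to -0.54.

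The genes did not all fall by the same factor. Within each library, the log2 ratio of each of the other 8 genes to Slc1a3 was compared between the groups by a two-sided exact permutation test over 924 assignments, whose smallest p is 0.00216, with adjustment over the 8 ratios. Atp1b2 rose relative to Slc1a3 by 0.49 on the log2 scale, or 1.40-fold (p = 0.00216, adjusted p = 0.00577, exact permutation test), and its ratio was higher in all 6 siEgr2 libraries than in any siNC library. Glul rose relative to Slc1a3 by 0.24 (adjusted p = 0.00577, exact permutation test), also without overlap. Slc1a2 rose relative to Slc1a3 by 0.24 (adjusted p = 0.00577, exact permutation test), and here the siEgr2 libraries were spread widely: the log2 ratio was -0.42 ± 0.028 (SD, n = 6) in siNC and -0.18 ± 0.15 in siEgr2. Without siEgr2 libraries 4 and 6 the difference was 0.16 (adjusted p = 0.0127). Slc4a4 rose relative to Slc1a3 by 0.17 with overlapping groups (p = 0.0108, adjusted p = 0.0216, exact permutation test). That difference lost its call without siNC library 3, 4 or 5 (adjusted p = 0.0519, 0.0649 and 0.0519) and was 0.090 without siEgr2 libraries 4 and 6 (adjusted p = 0.143).

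For the other 4 genes no difference from the change of Slc1a3 passed the test. The ratio of Aqp4 to Slc1a3 differed by 0.049 (adjusted p = 0.317, exact permutation test), that of Slc6a11 by 0.035 (adjusted p = 0.606) and that of Aldh1l1 by 0.11 (adjusted p = 0.0970). The Aldh1l1 ratio differed by 0.13 and passed without siNC library 6 (adjusted p = 0.0416), and by 0.066 without siNC library 2, the lowest for Aldh1l1 (adjusted p = 0.201). The ratio of Slc7a10 to Slc1a3 differed by 0.11 (adjusted p = 0.677), but at its few counts that value depends on the 0.5 CPM added before the logarithm and ran from -0.67 to 0.38 over the alternatives.

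Slc4a4, Aldh1l1 and Slc7a10 were also set against a gene with a related role, within a family of 7 ratios that shared one adjustment. Aldh1l1 fell by 0.85 on the log2 scale relative to its mitochondrial relative Aldh1l2 (p = 0.00216, adjusted p = 0.00303, exact permutation test). Slc4a4 fell by 0.64 relative to the bicarbonate cotransporter Slc4a7 (p = 0.00216, adjusted p = 0.00303, exact permutation test). For both ratios the groups did not overlap. Neither Aldh1l2 (174 CPM in siNC and 188 in siEgr2) nor Slc4a7 (57.9 and 56.9 CPM) was called changed itself. The ratio of Slc7a10 to the neutral amino acid exchanger Slc7a8 differed by -0.47 and did not pass (p = 0.0996, exact permutation test), but it passed without siEgr2 library 5 (-0.64, adjusted p = 0.0126). This value too depended on the few counts, and was -0.21 with 1 CPM added before the logarithm, -1.24 with 0.1 CPM added and -0.20 after thinning.

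**Figure D4:**
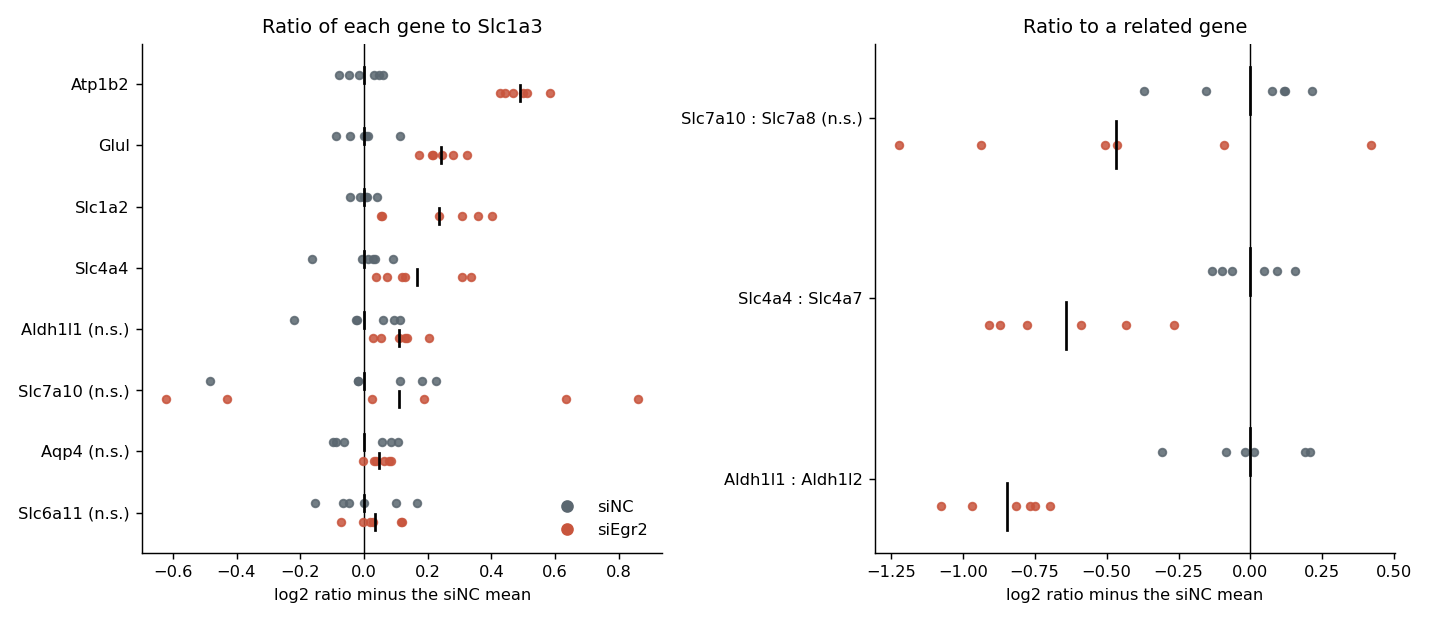
Log2 ratio of each gene to Slc1a3 (left) and of 3 genes to a related gene (right) in each library, shown as the difference from the siNC mean, with siNC in gray, siEgr2 in red and group means as vertical ticks (n.s., adjusted p of 0.05 or more). The siEgr2 mean of Atp1b2 lies furthest to the right relative to Slc1a3, and Aldh1l1 and Slc4a4 lie to the left relative to Aldh1l2 and Slc4a7.

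The other genes of these pathways had a median closer to 0 than the 9 genes. They formed 6 lists of 74 genes, of which 70 were tested, 8 fell and 1 rose (5.08% and 2.63% of all genes did so), with a median log2 fold change of -0.18. By adjusted p alone 28 were lower and 6 higher, against 11.3% lower and 19.9% in either direction over all genes. Without siEgr2 library 4 only 5 of them fell, and the single rise was lost without any one of siNC libraries 3, 4 and 6 and siEgr2 libraries 3, 4 and 5.

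Among 12 tested genes of glutamate and glutamine turnover, 1 fell and the median was -0.14. It was Slc7a11, the cystine and glutamate exchanger xCT, which went from 204 ± 23.0 to 93.2 ± 12.1 CPM (SD, n = 6; log2 fold change -1.13, adjusted p = 8.99e-07). The gene of the list with the highest mean over the 12 libraries, the glutamine transporter Slc38a2, had 336 CPM in siNC and 372 in siEgr2 (log2 fold change 0.15, adjusted p = 0.00236), short of the fold threshold. Glutamate dehydrogenase (Glud1), named after its values were seen and higher than Slc38a2 in siNC, had 358 CPM in siNC and 269 in siEgr2 without overlap (-0.41, adjusted p = 3.96e-07), also short of it. The list of potassium channels and sodium pump subunits had 10 tested genes, 2 of which fell and 1 rose, with a median of -0.20. The beta-1 subunit of the pump, Atp1b1, fell from 194 to 135 CPM (log2 fold change -0.52, adjusted p = 9.31e-06). The pump regulator Fxyd7 rose from 2.02 to 3.27 CPM with overlapping groups (0.69, adjusted p = 0.0336). The potassium channel Kir4.1 (Kcnj10), named after its values were seen, had 912 CPM in siNC and 651 in siEgr2, just short of the fold threshold (-0.49, adjusted p = 6.53e-08).

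None of 11 bicarbonate, proton and chloride transport genes was called, and the median was -0.18. The most abundant of them, the chloride cotransporter NKCC1 (Slc12a2), had 351 CPM in siNC and 344 in siEgr2 (-0.03, adjusted p = 0.763). Of 12 genes for water channels, the dystroglycan scaffold and cell volume, 2 fell and the median was -0.25. Mlc1, an astrocyte membrane protein of cell volume control, fell from 500 to 290 CPM (-0.79, adjusted p = 4.52e-09). Of 12 genes of GABA, glycine and neutral amino acid handling, 1 fell and the median was -0.26. It was the GABA transporter GAT2 (Slc6a13), which had 4.76 CPM in siNC and 2.21 in siEgr2 with overlap (-1.14, adjusted p = 0.0244). The GABA-degrading transaminase Abat, the most abundant, had 294 and 249 CPM (-0.24, adjusted p = 1.41e-04). Among 13 folate genes 2 fell and the median was -0.03: the folate hydrolase Folh1 went from 7.55 to 4.12 CPM (-0.88, adjusted p = 0.0218) and the folate transporter Slc46a1 from 11.8 to 7.99 CPM (-0.56, adjusted p = 0.0150).

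**Figure D5:**
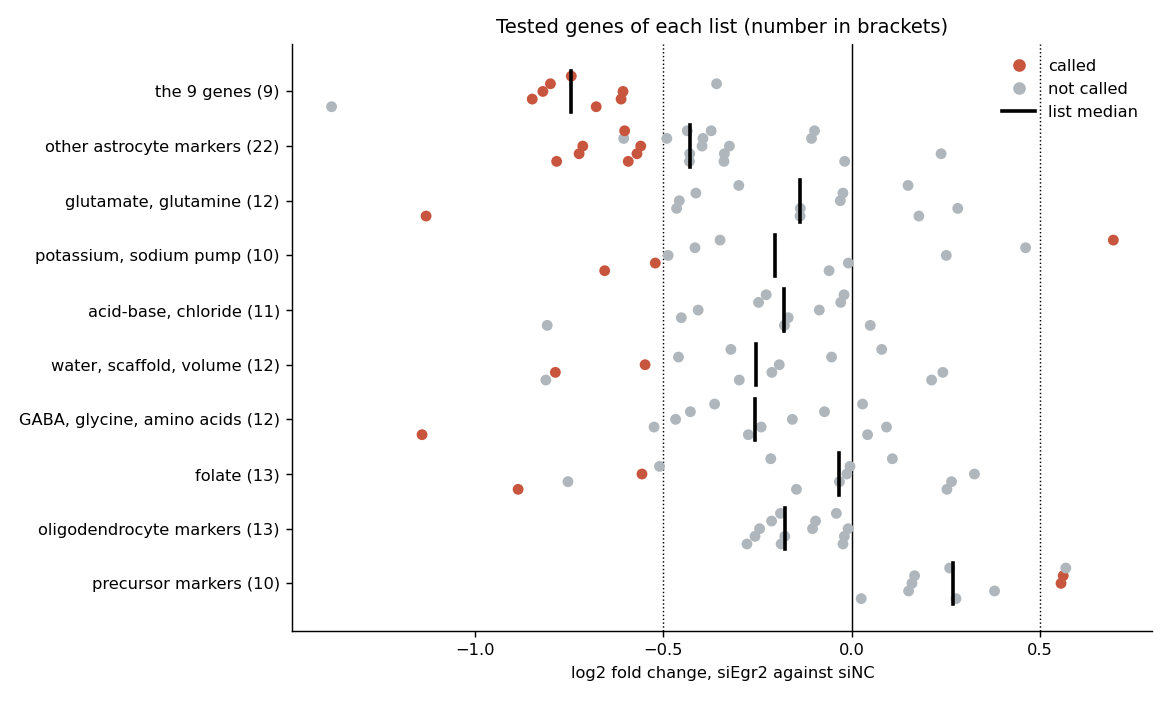
Log2 fold change, siEgr2 against siNC, of every tested gene in 10 of the lists (points, red where called; black bars, list medians; dotted lines, -0.5 and 0.5). Among the lists drawn, the 9 genes have the lowest median, at -0.74, followed by the other astrocyte markers at -0.43, and the median of the OL precursor markers is 0.27. The endothelial, ependymal, and fibroblast and pericyte lists, with medians of -0.93, -0.51 and -0.45, are not drawn.

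Many other astrocyte markers were lower as well. Of 22 tested markers outside the 9 genes, 7 fell and none rose (5.08% of all genes fell). By adjusted p alone 13 were lower, against 11.3% of all genes. The groups did not overlap for 12, all lower in siEgr2, where 7.0% of all genes were lower without overlap. The median log2 fold change was -0.43, with a range of -0.78 to 0.24. The intermediate filament gene Gfap fell from 4777 ± 205 to 3242 ± 152 CPM (-0.56, adjusted p = 2.25e-08). The lipid carrier Apoe (-0.59), clusterin (Clu, -0.71), the synaptogenic factor Sparcl1 (-0.72), Itih3 (-0.78), the transcription regulator Id4 (-0.57) and the sulfur amino acid enzyme Cbs (-0.60) fell as well. The markers were not uniform: S100b, which OLs also express, had 119 CPM in siNC and 118 in siEgr2 (-0.02, adjusted p = 0.849), and the log2 fold change was -0.11 for Fgfr3 and 0.24 for the endothelin receptor Ednrb, neither of them called. The gap junction gene Gja1 had a log2 fold change of -0.60 that did not pass (adjusted p = 0.0642). The part of the astrocyte content in the fall of the 9 genes was not tested.

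Markers of the other cells the cultures could hold were counted in the same way. Of all tested genes 5.08% fell, 2.63% rose, 11.3% were lower by adjusted p alone and 19.9% passed it in either direction. None of 13 tested OL markers was called (median -0.18), and 4 were lower by adjusted p alone. Of 10 precursor markers Pdgfra and Cspg4 rose (both 0.56), 8 were higher by adjusted p alone and the median was 0.27. The precursor markers summed to 5288 to 5649 CPM in siNC and 6532 to 6683 CPM in siEgr2. The 10 microglia markers summed to 4.01 to 7.27 CPM in siNC and 2.20 to 7.35 CPM in siEgr2, with Aif1 and Itgam at 0 in all libraries. Of the neuron markers 8 were tested and 1 fell (sums of 406 to 660 and 394 to 633 CPM), and 5 ependymal markers were tested and none was called (65.3 to 84.9 and 49.5 to 63.9 CPM, median log2 fold change -0.51). Of 7 fibroblast and pericyte markers 3 fell (609 to 1028 and 605 to 756 CPM, median -0.45), and of 3 tested endothelial markers 2 fell (24.0 to 32.1 and 13.2 to 19.0 CPM, median -0.93, Cldn5 at 0). The medians of these 3 lists were below that of the astrocyte markers. The part of these cells in the levels of the 9 genes was not tested.

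The 5 other genes whose log2 CPM followed the mean profile of the 9 genes most closely over the 12 libraries were Pbxip1, Abca1, Sulf1, Pdpn and Itga6. Their Pearson correlations with the profile were 0.991 to 0.992. The 9 genes, each of them part of that profile, had 0.959 to 0.993 apart from Slc7a10 at 0.747. The 12 libraries fall into the same 2 groups for every gene, and after each group was centred on its mean the correlations were 0.723 for Pbxip1, 0.371 for Abca1, 0.840 for Sulf1, 0.669 for Pdpn and 0.649 for Itga6. Abca1, which exports cholesterol, went from 405 to 217 CPM (log2 fold change -0.90), and podoplanin (Pdpn), a membrane glycoprotein of astrocytes and other cells, from 86.5 to 46.7 CPM (-0.89). The log2 fold change was -0.81 for Pbxip1, -0.82 for the laminin receptor subunit Itga6 and -0.56 for the heparan sulfate sulfatase Sulf1. The choice by correlation over both groups fixes that these genes are lower in siEgr2, so their values only describe them.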

How the data were processed

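The authors deposited RNA-seq counts per gene symbol for 12 libraries, not normalized. Per the labels, total RNA was extracted with TRIzol and sequenced on the Illumina platform, and the submitters' processing notes name mm10. The aligner, the counting program and the use of strand are not given in the sources used here. The table held 1 blank entry with 0 counts, which was left out, and 0 columns of no sample.

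The fit across all genes used edgeR 4.0.16 in R 4.3.3 (filterByExpr with a minimum count of 10, TMM scaling, robust quasi-likelihood test, no covariate), and p-values were adjusted by Benjamini-Hochberg over 16600 genes. CPM and ratios used TMM-scaled library sizes, and ratios used log2 of CPM plus 0.5. DESeq2 1.42.0 and limma-voom (limma 3.58.1) were alternatives, beside other scalings, filters, thresholds and pseudocounts, a replicate block, thinning, removal of structural RNA genes and each library left out. Chosen after seeing the data were 3 more: leaving out siEgr2 libraries 4 and 6, summing the closest siEgr2 libraries, and summing the closest libraries of both groups. The procedure was tested on simulated data. Exon lengths and coordinates came from GENCODE M21 (GRCm38) and promoters from RefSeq.

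The genes and lists were chosen with earlier results of these data known. The genes named are the 9, Egr2, called pathway and astrocyte genes, the gene with the highest mean CPM of each pathway list, both genes of each ratio given, and the 5 genes most like the profile. Single markers that were not called, Kcnj10 and Glud1 were named after their values were seen. The siEgr2 libraries hold fewer counts, which limits the precision for rare genes such as Slc7a10. Some genes that this rule names, and 4 of the 7 ratios to a related gene, are not reported here, but they stay in the counts and in the adjustment.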

Additional observations from a re-analysis of the deposited data

Results flagged for a closer look

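In 48 groups of 6 libraries (the CPM of the 9 genes and their ratios), 2 held a library far from the others by Dixon's criterion, where chance gives about 2.4. The Aldh1l1 level of siNC library 2 was 178 CPM, below the other 5 siNC libraries at 216 to 235 CPM. The log2 ratio of Slc7a10 to Slc1a3 in siNC library 4 was -10.07, below the other 5 at -9.61 to -9.36, and rested on 16 Slc7a10 counts.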

How the results depend on the processing

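Of the 9 genes, 7 fell and none rose under every alternative scaling, filter, test, depth and left-out library, except that 8 fell with library size only, limma-voom, summed siEgr2 libraries or no fold threshold, and 0 passed a log2 fold change over 1. The count of rising genes stayed at 0. With library size only, the median of all genes moved from 0.0046 to -0.18, the share of called genes that fell from 65.9% to 88.0%, and the distance of the 9 genes' median from it stayed at -0.75. That scaling called 1974 genes in all in place of 1281, 23 falling and 0 rising pathway genes in place of 8 and 1, and 17 astrocyte markers in place of 7. Without a fold threshold 3300 genes were called, with 28 pathway genes lower, 6 higher and 13 astrocyte markers lower. At a log2 fold change over 1 these were 373, 2, 0 and 0. Without a low-count filter 13 pathway genes fell and 0 rose. The rise was also lost (0) with the replicate block, with summed siEgr2 libraries, with the closest libraries of both groups summed (971 genes called in all, 7 of the 9 fell) and without siEgr2 libraries 4 and 6, where 5 pathway genes fell.

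Leaving out one library at a time gave 7 to 7 falling and 0 to 0 rising among the 9 genes, 5 to 9 falling and 0 to 1 rising pathway genes, 7 to 9 falling and 0 to 0 rising astrocyte markers, 1114 to 1339 called genes in all, 3 to 5 ratios to Slc1a3 and 5 to 6 ratios to a related gene past the test. Same-numbered libraries did not deviate together (correlations of -0.021 to 0.052). Low correlations can also arise where other spread is larger, so whether the numbers pair the samples stays unknown. By that measure siEgr2 libraries 1 and 6 best matched the siNC library of the same number, and siEgr2 libraries 2 to 5 best matched another. With the replicate block, 7 of the 9 genes fell, 1124 genes were called, and 0 of the 4 ratios to Slc1a3 passed, since the smallest p of 6 sign flips is 0.03125 (adjusted p = 0.0833 to 0.1, exact permutation). Of the ratios to a related gene 5 passed with the block. Slc7a10 was too rare to be tested after thinning, and it was under 1 CPM in most siNC libraries too, so it did not pass the filter of 1 CPM in 6 libraries. The causes of these changes were not tested.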
